A study of Mus musculus with 25 samples.

Results

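Array joins with long bait-end loss are translocation joins in which the bait chromosome end had lost 30 or more bases before it was joined to the Ter array of a reporter cassette. They numbered 1296 of the 5773 joins that fell in the array window (cassette positions 3025 to 3276), and of 11867 joins in all. Each read was followed from its 5-base barcode along the bait sequence, and a join was counted here when the last matching bait base lay 30 or more bases before the full bait end. These joins were thus chosen by the amount of bait lost, and the lengths of loss among them are given as a description without a test. The share of joins that met the rule was tested between groups and against the polyA region. Of the 1296 joins, 1178 came from cells with Tus, 117 from cells with I-SceI and 1, with 108 bases lost, from the control that the labels call EV. At the edge of the rule, 195 Tus joins lost 30 to 34 bases and 269 lost 25 to 29, with microhomology in 61.0 and 51.7% of them and a rightward direction in 4.62 and 9.29%.

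The study used mouse embryonic stem cells with a reporter in the ROSA26 locus, which RefSeq lists on mouse chromosome 6, and cut a bait site 30 kb away with Cas9. Junctions were read by LAM-HTGTS, an assay that amplifies outward from the bait and sequences whatever DNA the broken end was joined to. DNA was collected at 48 h, and the title places the work on BRCA1 and tandem duplications formed through microhomology at stalled forks. The tables hold 10 groups and 25 samples.

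In the first 4 groups, cells of the genotype BRCA1del/exon11 (BRCA1del here) received Tus with siRNA against BLM, BRCA1, FANCM or luciferase, and 3 samples were made of each. The next 4 groups had the same effector and siRNAs in cells of the genotype BRCA1flox/exon11 (BRCA1flox here), with 3 samples for siFANCM and 2 for each of the others. The other groups were BRCA1del cells with siFANCM that received I-SceI or EV, with 2 samples each. All groups shared the cassette, the Cas9 bait cut and transfection. Whether a genotype is represented by 1 clone is not given in the sources used here, and no label says whether samples were separate cultures.

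Tus is a bacterial protein that binds Ter elements and blocks a replication fork coming from its non-permissive side, whereas the homing endonuclease I-SceI cuts its site outright. BRCA1 promotes homologous recombination, BLM is a RecQ helicase and FANCM is a translocase that remodels stalled forks. A broken end can be shortened before it is joined, and end joining through microhomology uses short runs of bases that both ends hold, so that the final sequence keeps a single copy of the run.

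The bait sequence below, read from the deposited reads as their majority sequence and lying in mouse DNA per the labels, shows what was removed. It is written 5′ to 3′ from base 1, next to the barcode, to base 145, the full bait end. Capitals mark the last 30 bases, which are absent from every join described here.

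bait: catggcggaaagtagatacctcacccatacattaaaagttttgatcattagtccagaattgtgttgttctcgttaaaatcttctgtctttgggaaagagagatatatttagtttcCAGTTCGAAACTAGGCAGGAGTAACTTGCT

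The most frequent bait ends of these joins lay in the last stretch of lower-case letters. In the windows below, each of 20 bases up to a bait end, capitals mark the bases that the bait shared with the array at the most frequent joins.

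bait end at base 113: aaagagagatataTTTAGTT

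bait end at base 115: agagagatatatttagTTTC

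Base 113 was the most frequent bait end with Tus, at 86 joins (7.30% of 1178) in all 21 Tus libraries. It was followed by bases 106 and 115 with 45 joins each, base 107 with 41 and base 104 with 39. With I-SceI, base 107 led with 12 of 117 joins, ahead of base 113 with 10 and base 106 with 8. Losses were otherwise widely spread. The 5 leading ends held 21.7% of the Tus joins, and 88 different bases served as a bait end. Only 15 of the 1296 joins repeated the library, bait end, position and direction of another, no combination was seen more than 2 times in a library, and 1281 combinations were distinct.

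The 7 bases TTTAGTT, which occupy bait bases 107 to 113, were the shared sequence of 61 joins in 23 libraries. The same 7 bases occur once in each of the 6 Ter elements, read in the direction of a leftward join, and nowhere else on either strand of the array. All 61 joins lay at these copies, and each of them lost 32 bait bases. There were 17 at the first Ter element (position 3068), 13 at the second (3096), 6 at the third (3124), 11 at the fourth (3186), 11 at the fifth (3214) and 3 at the sixth (3242). Every Ter element was thus used, with the largest number at the first. Reads that end inside the array cannot tell its 117-bp repeats apart, and of the joins at the fourth element only 2 of 11 reached unique flanking sequence, against 14 of 17 at the first.

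Of the 61 joins, 57 came from Tus cells, which is 4.84% of their 1178 joins with long loss. BRCA1del cells gave 31 of them and BRCA1flox cells 26. By group, the share ranged over 4.00 to 7.75% in the BRCA1del groups and over 3.77 to 5.22% in the BRCA1flox groups, so the ranges overlapped. The I-SceI group gave 4 of its 117 joins (3.42%). None of the other array joins had these 7 bases as shared sequence. Since a join through this copy loses 32 bases, the rule itself places it among the joins described here.

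The bait and the leftward strand of the array had 3 stretches of 7 bases in common among the 139 in the bait, and the rightward strand had none. Besides TTTAGTT, the stretch GATATAT was the shared sequence of 14 Tus joins in 11 libraries. It was singled out after its count was seen. The 5 most frequent combinations of bait end, position and direction with Tus were all leftward. Of these, 4 had bait end 113, with 17 joins at 3068, 14 at 3096 and 11 each at 3186 and 3214. The other ended at base 115 and joined at 3077 in 11 joins from 10 libraries, with the 4 bases TTTC shared. With I-SceI, no combination had more than 3 joins.

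**Figure D1:**
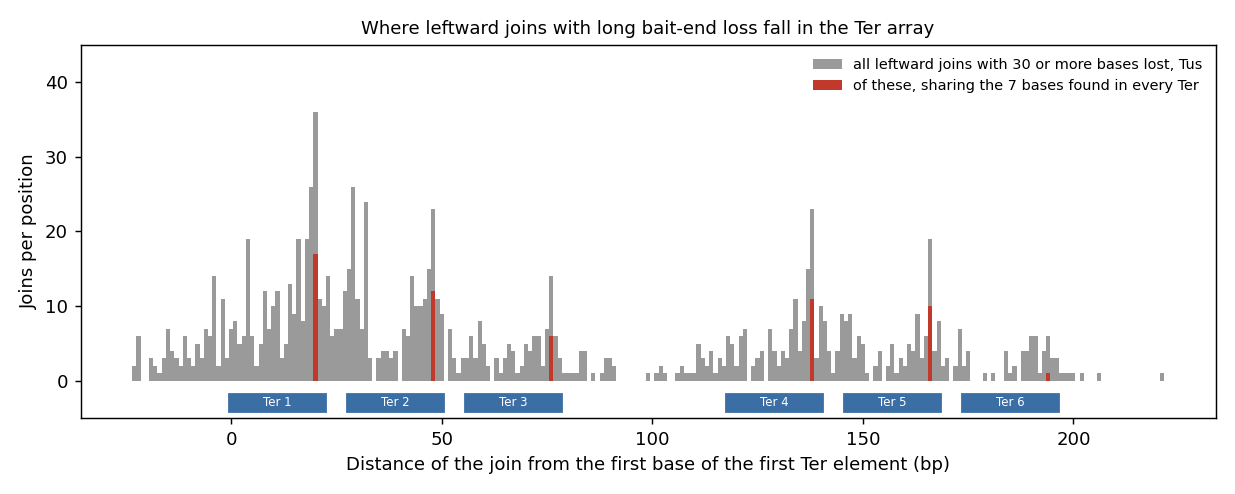
Leftward joins with long bait-end loss in the Tus groups, counted per position (vertical axis) against the distance in bp from the first base of the first Ter element (horizontal axis). Grey bars are all joins, red bars those that share the 7 bases found in every Ter element, and blue blocks the 6 elements. Red bars stand at the same place within each element, the tallest with 17 joins in the first.

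The stretch of bait where these joins end differs in composition from the stretch they lack. Bases 17 to 115 were 67.7% A or T, near the 68.9% of the array window, against 53.3% for the last 30 bases. A bait end was called matched when the 4 bases up to it also occur on the leftward strand of the array. That held for 39 of 99 positions in bases 17 to 115 and for 5 of 30 in the last 30 bases. Of 1129 leftward Tus joins with long loss, 59.9% ended at a matched position, against 22.0% of 3296 other leftward Tus joins. These shares follow in part from the sequences available to each class, and no test was made of them.

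The structure of the joins was compared with that of the other array joins of the same library. Of the 1296 joins, 1287 had a called structure. Joins with long loss were less often rightward (running from the join toward the high end of the cassette), more often had microhomology, counted from 2 shared bases, and were less often blunt. Each of the 21 Tus libraries was its own comparison in a two-sided sign-flip permutation test of 100000 resamples, with Benjamini-Hochberg adjustment over 4 measures.

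Rightward joins made up 4.98% ± 3.90 of the joins with long loss and 12.5% ± 6.42 of the other array joins (SD, n = 21 libraries). The difference was -7.47 percentage points (adjusted permutation p = 8e-05) and was negative in 20 of 21 libraries. The pair of I-SceI libraries lay far higher in both classes, at 36.2 and 34.3% of the joins with long loss, against 43.7 and 47.8% of the others. The rightward share at long loss was lower in both I-SceI libraries, with differences of -7.49 and -13.5 percentage points, where an exact sign-flip test gave p = 0.5, the smallest that 2 libraries allow. Only 49 Tus joins with long loss were rightward. Median read length was 261 bases in the Tus joins with long loss and 295 in the others, while the joined DNA covered a median of 153 and 132 bases. The part of read length in this difference was not tested.

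Microhomology was found in 56.4% ± 8.07 of the joins with long loss and in 40.3% ± 9.49 of the other array joins (SD, n = 21 libraries). The difference of 16.1 percentage points had an adjusted permutation p of 4e-05, from the smallest p that the resamples can give (1e-05), and was positive in 20 of 21 libraries. In the I-SceI libraries the shares were 44.7 and 35.7% at long loss, against 14.5 and 13.1% in the others. Microhomology was therefore lower with I-SceI than in the Tus mean in both classes. That mean spans both genotypes and 4 siRNAs, while I-SceI was used in BRCA1del cells with siFANCM only. In the matched Tus libraries the shares were 59.3, 43.6 and 50.0% at long loss and 27.9, 27.5 and 49.1% in the others. The matched libraries overlapped those of I-SceI at long loss, but not in the other array joins. Shared runs of 4 or more bases were found in 198 of 1169 Tus joins with long loss (16.9%), against 298 of 3770 others (7.90%). Of the 198 joins, 57 shared TTTAGTT and 14 GATATAT. The longest run was 7 bases at long loss and 6 bases elsewhere. The 3 stretches of 7 bases common to bait and array all end at or before bait base 113. Only joins with long loss could share them in full, so both contrasts follow in part from the rule.

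Blunt joins made up 8.48% ± 3.63 of the joins with long loss and 17.5% ± 6.54 of the other array joins (SD, n = 21 libraries). The difference was -8.97 percentage points (adjusted permutation p = 6e-05), and 19 of 21 libraries had the lower share at long loss. In the I-SceI libraries, blunt joins were 27.7 and 14.3% at long loss, against 45.1 and 36.6% in the others. Joins with inserted bases did not pass the test, at 16.1% ± 7.34 against 18.3% ± 6.65 (SD, n = 21 libraries; difference -2.18 percentage points, adjusted permutation p = 0.217). The base composition given above moves with the microhomology and blunt differences, and its part in them was not tested.

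**Figure D2:**
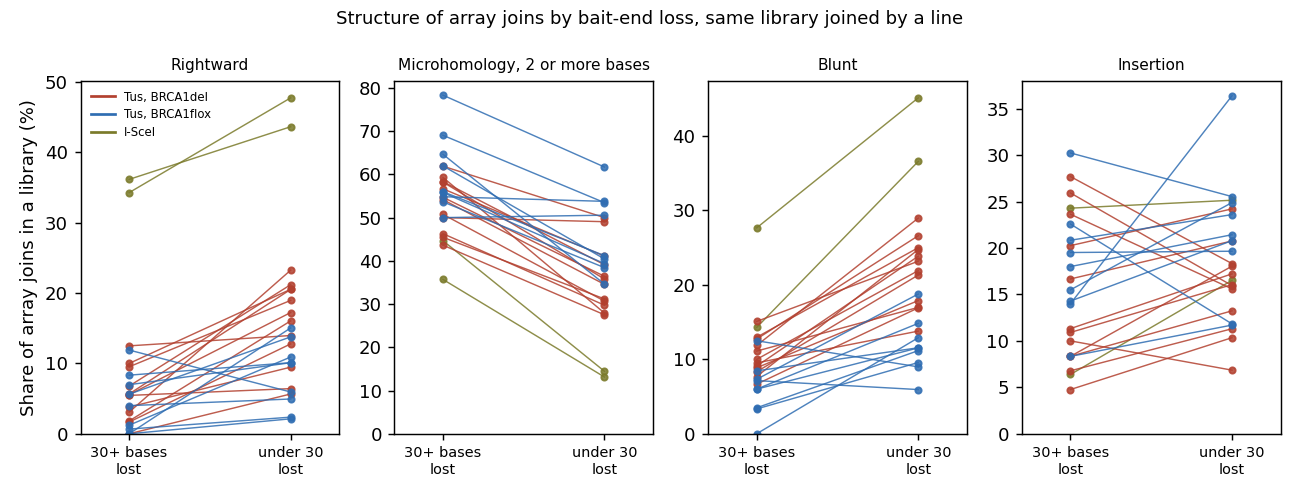
Share of array joins in each library (vertical axes, in percent) that were rightward, had microhomology, were blunt or had an insertion, for joins that lost 30 or more bait bases (left) and joins that lost fewer (right). A line joins the values of 1 library, coloured by effector and genotype. The microhomology lines fall toward the right in 20 of 21 Tus libraries, and the blunt lines climb in 19 of 21.

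Within the array, uniquely placed leftward joins of BRCA1del cells with Tus had a median position of 3073 at long loss (422 joins, quartiles 3058 and 3098), against 3068 for the other joins. In BRCA1flox cells the medians were 3084 (398 joins) at long loss and 3071 for the other joins. The position 3073 lies between the first Ter element (3048 to 3070) and the second (3076 to 3098), and 3084 lies in the second. The first element held 35.8% of the placed joins with long loss in BRCA1del cells and 23.1% in BRCA1flox cells, against 37.3 and 34.8% of the other placed joins. A leftward join was placed only when its read ran past the low end of the repeats, which favours joins at the first elements. Of leftward joins, 77.1% at long loss and 75.3% of the others were placed in BRCA1del cells, and 68.4 and 61.1% in BRCA1flox cells. The part of placement in these medians and shares was not tested. With I-SceI, 75 of 117 joins with long loss lay in the I-SceI site (64.1%), against 454 of 698 others (65.0%). By direction, leftward joins lay in the site in 46.1% at long loss (35 of 76), against 37.2% of the others (141 of 379), and rightward joins in 97.6 and 98.1%. Positions were described without a test.

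How often array joins had long loss was then compared across the groups, each sequencing run of a group being taken as 1 library. In cells with Tus the pooled share ranged from 17.9 to 32.9% over the 8 groups, and it was 14.4% with I-SceI (117 of 815 joins, Wilson 95% interval 12.1 to 16.9%). Amplified reads are not independent molecules, so the intervals cover counting error only. The comparison of effectors, in BRCA1del cells with siFANCM, asks whether a join at a stalled fork loses more of the bait end than a join at a nuclease cut. Tus gave 17.2, 20.1 and 25.4% in its libraries and I-SceI 12.1 and 16.4%, so that the lowest Tus library exceeded the highest I-SceI library. The means were 20.9% ± 4.13 (SD, n = 3) and 14.2% ± 2.98 (SD, n = 2). The pooled shares of 19.2 and 14.4% differed by 4.86 percentage points (Fisher's exact test on pooled joins, two-sided p = 0.0122). An exact permutation test over libraries gave p = 0.2, and this design cannot go below 0.1. In the only 2 runs that held both groups, the shares with Tus and I-SceI were 17.2 and 12.1% in run A, and 20.1 and 16.4% in run C. Without run A the pooled difference was 4.87 with p = 0.0935 in Fisher's exact test. The array window includes the I-SceI site, and over the span of the Ter elements alone the difference was 2.72 (Fisher's exact p = 0.533). It was 2.97 (Fisher's exact p = 0.206) at a minimum loss of 20 bases, and 3.54 (Fisher's exact p = 0.0913) when each position, strand and bait end was counted once per library.

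Between the genotypes, long loss was less frequent in BRCA1del cells than in BRCA1flox cells over the 4 siRNAs. The means over the siRNAs of the library shares were 21.7% in BRCA1del cells and 28.4% in BRCA1flox cells. Their difference was -6.77 percentage points (exact permutation of libraries within each siRNA, two-sided p = 0.0154), and the Mantel-Haenszel odds ratio on pooled joins was 0.657 (95% interval 0.576 to 0.749). Restricted to the runs that held both genotypes, the difference was -4.57 with p = 0.266 (exact permutation of signs), and the share was lower in BRCA1del cells in 6 of 8 same-run pairs. Without run B the p was 0.0843 and without run C 0.105 in the exact permutation test.

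With siBLM, the BRCA1del libraries had 14.9, 19.2 and 26.6% of array joins with long loss, and the BRCA1flox libraries had 31.8 and 29.4%. The groups did not overlap, and the pooled shares of 17.9 and 31.0% differed by -13.1 percentage points (Fisher's exact test, adjusted over 4 pairs, p = 2.2e-06). For siBLM, siBRCA1 and siLuciferase, run B held BRCA1del cells only, so run and genotype are partly confounded. Without run B the siBLM difference was -10.2 (adjusted Fisher's exact p = 0.00522). The siBLM shares were 19.2 and 31.8% in run C, and 26.6 and 29.4% in run D. With siLuciferase the BRCA1del libraries had 18.4, 29.6 and 15.0%, and the BRCA1flox libraries had 30.8 and 39.4%. These groups did not overlap either, with pooled shares of 21.7 and 32.9% and a difference of -11.2 (adjusted Fisher's exact p = 6.1e-06). Run C and run D disagreed in size. In run C the siLuciferase shares were 29.6% in BRCA1del cells and 30.8% in BRCA1flox cells, and in run D 15.0 and 39.4%. The pooled siLuciferase difference was -8.68 without run B, -22.1 without run C and -7.33 without run D.

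With siBRCA1, the BRCA1del libraries had 20.1, 24.3 and 29.1% and the BRCA1flox libraries 26.8 and 24.6%, which overlap. The difference of pooled shares was -2.90 percentage points (adjusted Fisher's exact p = 0.281), and -0.520 without run B. With siFANCM the BRCA1del libraries had 17.2, 20.1 and 25.4% and the BRCA1flox libraries 23.9, 21.9 and 21.2%, again overlapping, with a difference of -3.49 (adjusted Fisher's exact p = 0.162). Here run A held only BRCA1del cells and run B only BRCA1flox cells, so run and genotype are partly confounded too. In runs C and D, which held both, the pooled siFANCM difference was -0.455 (adjusted Fisher's exact p = 0.926). Exact permutation over libraries gave p of 0.2 for siBLM and siLuciferase, 0.7 for siBRCA1 and 0.6 for siFANCM, where the smallest possible value is 0.1.

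None of the siRNAs passed the test against siLuciferase. Averaged over both genotypes, the difference in the share with long loss was -2.66 percentage points for siBLM, -2.93 for siBRCA1 and -6.43 for siFANCM. The exact permutation p-values, adjusted over the 3 siRNAs, were 0.517, 0.517 and 0.405. The 3 comparisons share the siLuciferase libraries.

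**Figure D3:**
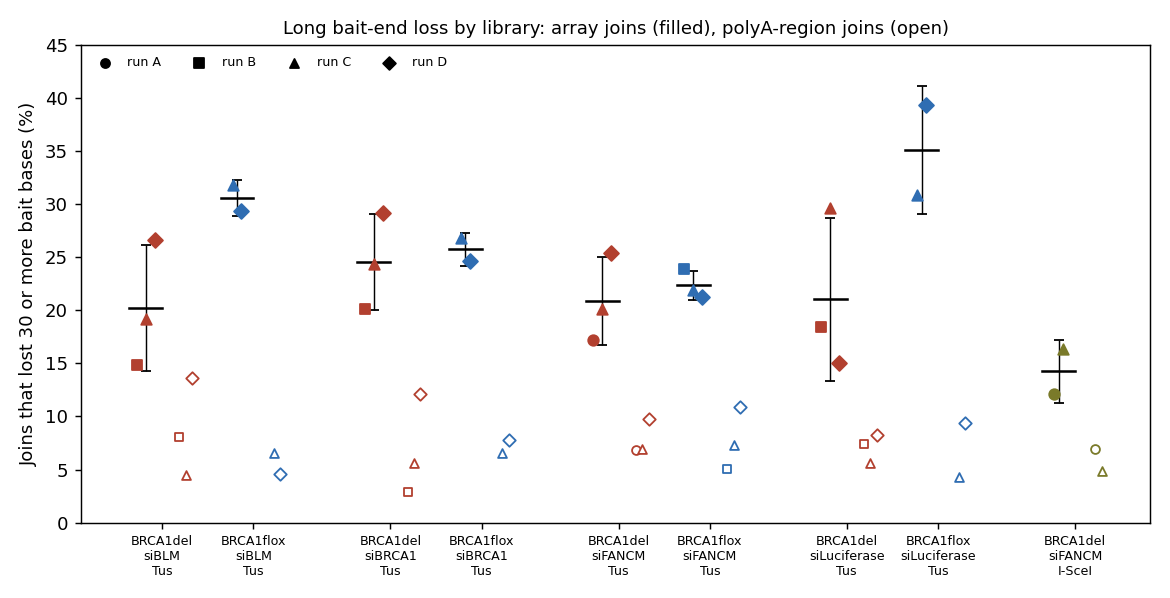
Share of joins that lost 30 or more bait bases (vertical axis, in percent) in each library of the 8 Tus groups and the I-SceI group, with BRCA1del left of BRCA1flox for each siRNA. Filled symbols are array joins with their mean and SD (black), open symbols joins in the polyA region, and the symbol shape gives the sequencing run. Array joins lie above polyA-region joins in every library drawn, and run D separates the siLuciferase genotypes most, at 15.0 and 39.4%.

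Joins elsewhere on the cassette gave a background for the bait end. In the polyA region (positions 3618 to 3928) the same bait had long loss in 7.35% ± 2.69 of joins, against 24.3% ± 6.13 in the array, over the same 21 Tus libraries (SD). The array share was higher in 21 of 21 libraries, by 16.9 percentage points (sign-flip permutation test, p = 1e-05, the smallest the resamples can give). The I-SceI group had 5.91% in the polyA region and 14.4% in the array. EV cells, which received neither Tus nor I-SceI, had 463 polyA-region joins and 1 array join, so joins in the polyA region also arose without either. Of the 463 joins, 35 had long loss (7.56%).

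The length of the loss differed most between the genotypes at its far end. Joins were divided at 60 and 90 lost bases after the values had been seen, so these shares are a description. Losses of 90 or more bases made up 2.78% of array joins in BRCA1del cells with Tus (78 joins) and 8.80% in BRCA1flox cells with Tus (189 joins). With I-SceI, used in BRCA1del cells with siFANCM only, they made up 1.47% (12 joins). The matched Tus group, BRCA1del with siFANCM, had 1.60% (11 joins). Its libraries, at 0.875, 2.56 and 1.41%, overlapped the I-SceI libraries, at 1.81 and 1.17%. By group with Tus, losses of 90 or more bases were 1.60 to 3.70% in BRCA1del cells and 6.61 to 11.2% in BRCA1flox cells, which do not overlap. By library, they were 0.875 to 7.04% in the 12 BRCA1del libraries and 5.56 to 18.1% in the 9 BRCA1flox libraries, which do. Of the 8 same-run pairs, 7 had the lower share in BRCA1del cells, with a median difference of -5.41 percentage points. The exception was siBRCA1 in run D, with 5.83% in BRCA1del cells and 5.56% in BRCA1flox cells.

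With Tus, losses crowded again at 105 to 114 bases in BRCA1flox cells, and BRCA1del cells had a smaller rise there. In BRCA1del cells the share of array joins was 0.392% at 100 to 104 bases, 0.748% at 105 to 109 and 0.712% at 110 to 114. Their bins of 70 to 74 and 75 to 79 bases held more, at 1.03 and 0.783%. In BRCA1flox cells the bins from 100 to 114 bases held 0.838, 2.05 and 2.84%. With I-SceI, 0.368% of array joins lost 110 to 114 bases. At 110 to 114 bases, bait base 34 (111 bases lost), singled out after its count was seen, ended 10 of 20 BRCA1del joins and 28 of 61 BRCA1flox joins. Its part of this bin was thus similar in both genotypes, and its joins came from 14 libraries. Of these 38 joins, 30 had microhomology.

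Losses of 60 to 89 bases made up 4.24% of array joins in BRCA1del cells and 8.34% in BRCA1flox cells. They made up 1.96% with I-SceI and 4.37% in the matched Tus group. They were less frequent in BRCA1del cells in 6 of 8 same-run pairs. Losses of 30 to 59 bases ran the other way between the genotypes, at 13.5% in BRCA1del cells and 10.9% in BRCA1flox cells. Here BRCA1del cells had the lower share in only 1 of 8 same-run pairs, and the median difference was 3.88 percentage points. With I-SceI these losses made up 10.9%, against 13.2% in the matched Tus group. The median loss among joins with long loss was 43 to 51 bases in the BRCA1del groups with Tus and 61 to 76 bases in the BRCA1flox groups. It was 39 bases with I-SceI and 44 in the matched Tus group.

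**Figure D4:**
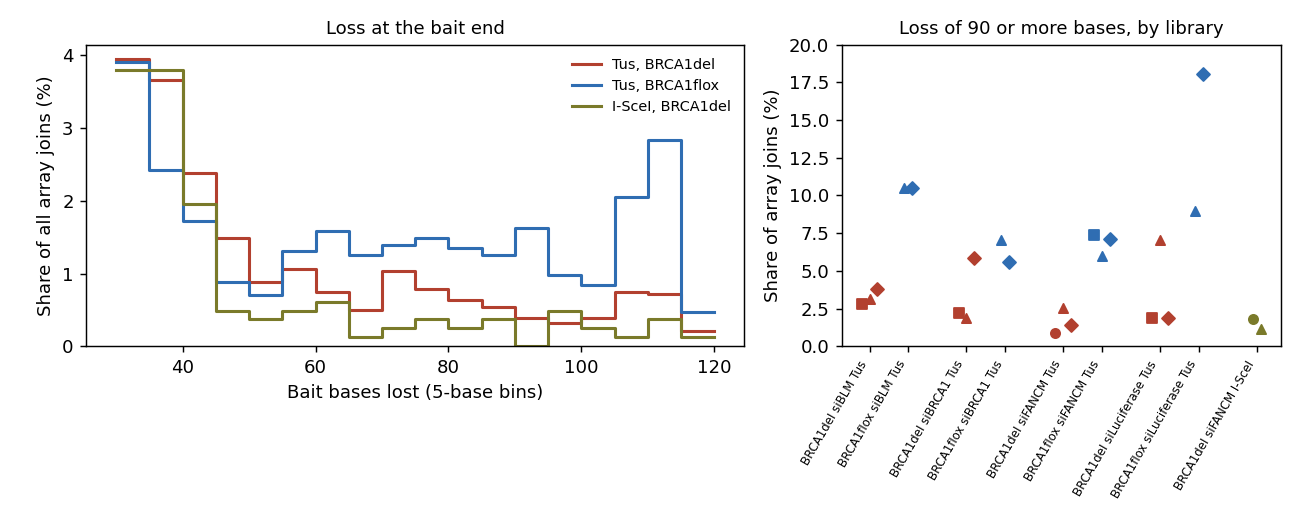
Left, share of all array joins (vertical axis, in percent) by the number of bait bases lost, in bins of 5 bases up to 119, for Tus in BRCA1del cells, Tus in BRCA1flox cells and I-SceI. Right, share of array joins that lost 90 or more bases in each library, with symbol shapes for runs as circles (A), squares (B), triangles (C) and diamonds (D). The BRCA1flox libraries lie at 5.56 to 18.1% and the BRCA1del libraries with Tus at 0.875 to 7.04%.

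The structure of array joins varied with genotype, in the joins with long loss and in the others. Among joins with long loss, blunt joins were more frequent in BRCA1del cells than in BRCA1flox cells, at 10.5 and 5.88% (mean of the 4 siRNAs; difference 4.63 percentage points, exact permutation within siRNA, adjusted over 4 measures, p = 0.0016). By group, they were 7.98 to 13.3% in BRCA1del cells and 4.69 to 8.28% in BRCA1flox cells. Microhomology was less frequent in BRCA1del cells, at 52.9 and 60.2% (difference -7.28, adjusted exact permutation p = 0.0442). By group it was 50.0 to 57.7% in BRCA1del cells and 54.0 to 68.6% in BRCA1flox cells. The microhomology call was lost under 11 of 16 alternatives, among them leaving out run B, C or D (adjusted exact permutation p = 0.223, 0.0658 and 0.0864). Counted from 1 or from 4 shared bases, the difference was -1.81 and -2.56 (adjusted exact permutation p = 0.605 and 0.366). Within shared runs the differences were 4.43 for blunt joins and -7.59 for microhomology, each with an adjusted exact permutation p of 0.0625. Counting each position and strand once per library gave 3.15 for blunt joins (adjusted exact permutation p = 0.234).

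The other array joins differed between the genotypes in the same directions. Blunt joins made up 23.0% of them in BRCA1del cells and 12.5% in BRCA1flox cells (difference 10.6 percentage points, adjusted exact permutation p = 0.0002), and microhomology 33.6 and 42.5% (difference -8.96, adjusted exact permutation p = 0.0169). Per library, the blunt share at long loss minus that of other joins was -11.4 percentage points in BRCA1del and -6.03 in BRCA1flox cells. In percentage points, the genotypes thus differed less in blunt joins at long loss (adjusted exact permutation p = 0.0198). The same subtraction for microhomology gave 17.2 and 14.9 (adjusted exact permutation p = 0.484). Blunt joins were rarer at long loss in both genotypes, and the genotype difference was not tested as a ratio. These comparisons with the other array joins were not repeated within shared runs.

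Neither the rightward share of the joins with long loss, at 4.96% in BRCA1del cells and 3.87% in BRCA1flox cells, nor the insertion share, at 15.9 and 18.7%, passed the test (adjusted exact permutation p = 0.456 and 0.458). In the other array joins, rightward joins were 16.2% in BRCA1del cells and 8.24% in BRCA1flox cells (adjusted exact permutation p = 0.0077), and insertions 16.1 and 23.9% (adjusted exact permutation p = 0.0103). Long loss minus other array joins was -10.0 percentage points for rightward joins in BRCA1del cells and -4.12 in BRCA1flox cells (adjusted exact permutation p of the difference 0.0302), and -1.11 and -3.42 for insertions (adjusted exact permutation p of the difference 0.484). Within a genotype, microhomology is given by the length of the loss without a test. In BRCA1del cells it was 52.5, 53.8 and 54.5% at losses of 30 to 59, 60 to 89 and 90 or more bases. In BRCA1flox cells it was 61.0, 61.8 and 61.5%.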

How the data were processed

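Translocation joins were measured by LAM-HTGTS in 25 samples, deposited by the authors as 1 table per group with 1 row per join. The deposited values are of no standard unit: positions, strands and read sequences, not counts. The submitters' processing notes list Bowtie2 and mm9, and filters are not given in the sources used here. Deposited positions run along the cassette. Positions are those deposited, while reads hold 1 base fewer between the third and the fourth Ter element.

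The bait was rebuilt as the majority sequence after the 5-base barcode, extended while the leading base held 50% of reads, and reached 145 bases. The last exact 10-base bait seed within 4 bases of its expected place was extended to give the bait end. 1 array join had no bait match. The joined DNA was extended from a 12-base seed. Bases in both parts are microhomology and bases in neither an insertion. Reads reaching 20 bases past the repeats were called uniquely placed, and lower-case bases in 366 reads were read as capitals.

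Tables pool samples and carry no replicate number, so each sequencing run of a group counted as 1 library. The series held 4 runs, and each group had reads from 2 or 3 of them. There were 25 libraries with 148 to 933 joins (median 545) and, with Tus or I-SceI, 71 to 490 array joins. No label says whether samples were separate cultures, so p-values measure the spread between libraries, which may be technical. Tests on pooled joins cover counting error only. Bait ends were named by rank, the 5 most frequent, and joins as the 5 most frequent combinations. The members and lists were chosen with earlier results of these data known. The caller and the permutation test were tested on simulated data. Python 3.11.15, pandas 2.3.3, numpy 2.4.6, scipy 1.17.1 and statsmodels 0.14.6 were used.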

Additional observations from a re-analysis of the deposited data

Results flagged for a closer look

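The difference in the share of array joins with long loss, BRCA1del minus BRCA1flox, was itself unequal between the siRNAs. It was -13.1 percentage points with siBLM, -2.90 with siBRCA1, -3.49 with siFANCM and -11.2 with siLuciferase. A likelihood-ratio test of the interaction of genotype and siRNA in a binomial logistic model of pooled joins gave p = 0.00819, which covers counting error only. Within run C the differences were -12.6, -2.49, -1.74 and -1.19 percentage points in the same order of siRNAs, and within run D -2.79, 4.52, 4.11 and -24.4. The order of the siRNAs was thus not shared by the runs, and the interaction was not tested over libraries.

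The gap between joins with long loss and the other array joins of a library also differed between the genotypes for rightward and blunt joins. BRCA1del minus BRCA1flox in this gap was -5.90 percentage points for rightward joins and -5.41 for blunt joins (exact permutation of libraries within siRNA, adjusted over 4 measures, p = 0.0302 and 0.0198), a comparison added after seeing the data.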

How the results depend on the processing

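Of 351 recomputed values, 295 stayed on their side of the threshold or within the spread, 25 moved, 23 no longer passed, 6 passed newly and 2 changed sign. The cause was not tested. At a minimum loss of 20 bases the mean share of the Tus groups was 34.1% and that of I-SceI 26.9%, Tus minus I-SceI was 2.97, the genotype difference -4.10 over siRNAs and 0.386 (sign changed) with siBRCA1, and the rightward difference of the genotypes, 3.17, passed. At 40 bases the shares were 17.2 and 6.75%, and siFANCM, at -5.14, passed. Assigning shared bases to the prey gave -6.97 for the genotype difference in microhomology. Counting a position, strand and bait end once per library gave 3.54 for Tus minus I-SceI and -7.18 for microhomology. Counting a position and strand once gave 4.35, -10.3, 3.15 for blunt joins and 5.02 (sign changed) for insertions. The span of the Ter elements alone gave 2.72 for Tus minus I-SceI, -5.66 for the genotypes and -5.80 for microhomology. Uniquely placed reads gave -6.10 for siFANCM, which passed, and -8.27 for microhomology. Microhomology from 1 or 4 bases gave -1.81 and -2.56. Bridging 1 bait mismatch, chosen after seeing the data, gave -3.49 for insertions at long loss against other array joins, which passed. Differences given without a remark no longer passed.

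With the run as replicate block, the genotype difference was -4.57, -7.59 for microhomology and 4.43 for blunt joins, none of which passed; the block ended no other call. Runs are not tied to the labels' replicate numbers. Leaving out each run in turn gave 4.15 to 6.45 for Tus minus I-SceI, -8.15 to -5.03 for the genotypes, -10.2 to -6.17 for microhomology and -6.14 to -0.480 for insertions between genotypes, and -3.69 to -0.921 for insertions at long loss against other array joins. Without run C both insertion differences passed. The differences in rightward, microhomology and blunt joins between joins with long loss and other array joins of the same library, and the difference from the polyA region, passed under every alternative run. Libraries held 18 to 151 joins with long loss, and the part of depth in the differences was not tested.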

Other observations

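Joins left of the array, at positions below 3025, had long loss in 14.0 to 15.1% of joins in the BRCA1del groups with Tus, 14.5 to 20.3% in the BRCA1flox groups with Tus and 12.7% (9 of 71 joins) with I-SceI. These pooled shares lay between those of the polyA region and those of the array in each of these 9 groups, and no test was made.

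Inserted bases were found in 218 of the joins with long bait-end loss. The median insertion had 6 bases and the longest 147. The 64 insertions of 12 or more bases were searched for any 12-base piece that occurs in the bait or the cassette, and the first match was kept. In the order searched, 3 held a piece of the bait, 1 of the inverted bait, 4 of the cassette and 7 of the inverted cassette. The other 49 held no such piece.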
